A study of Sus scrofa with 12 samples.

Results

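The response of paVICs, interstitial cells isolated from pig aortic valves, to 24 h of 10 μM lysophosphatidylcholine (LPC) was analysed across genes. The comparison set the 3 LPC libraries against the 3 vehicle libraries, which are 6 of the 12 mRNA libraries of the study. Vehicle wells held 0.6% DMSO and 0.1% ethanol, and LPC wells held 0.6% DMSO with LPC dissolved in ethanol. The other libraries were 60 μM dantrolene in DMSO with 0.1% ethanol, and 60 μM dantrolene with 10 μM LPC (n = 3 per group), and they served to separate genes changed with LPC from genes changed with dantrolene. All cells were wild type and came from the same primary isolations, each pooled from the valves of several pigs. Replicates with the same number were taken to share an isolation, which the labels do not state. They were thawed, passaged once, and treated in medium with little serum.

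LPC is a lipid with a single acyl chain that phospholipases release from phosphatidylcholine, and it is abundant in oxidized low-density lipoprotein and in calcified valves. In cultured valve cells it is used to drive calcification, and it disturbs membranes and raises calcium in the cytosol. Fatty acids that lysophospholipases release from it can act as ligands of the peroxisome proliferator-activated receptors (PPARs), nuclear receptors that switch on genes for burning fat. Valve interstitial cells themselves are fibroblast-like, build the collagen and proteoglycan matrix of the leaflet, and can become contractile myofibroblasts or bone-like cells. Dantrolene blocks the ryanodine receptor, a calcium release channel of the endoplasmic reticulum.

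Total counts lay between 17730111 and 22859544 in these 6 libraries, and 3 counts corresponded to between 0.143 and 0.175 CPM (counts of a gene relative to the TMM-scaled library size). The correlation of log2 CPM was 0.958 to 0.975 between vehicle libraries, 0.952 to 0.967 between LPC libraries, and 0.927 to 0.957 between the groups. The 13 fibroblast markers summed to 90020 to 92960 CPM with vehicle and 56570 to 89600 CPM with LPC. The 14 endothelial markers summed to 189 to 218 CPM and 146 to 178 CPM. ERG was the highest of them, at 51.6 to 87.2 CPM with vehicle and 39.7 to 77.9 CPM with LPC. PECAM1 was at 36.9 to 44.2 CPM and 23.7 to 39.3 CPM, and only MMRN1 was at 0 in all 6 libraries. The 14 leukocyte markers summed to 578 to 788 CPM and 430 to 810 CPM, and 7 of them, PTPRC and CD3E included, were at 0. Nearly all of this sum was CD74, at 556 to 764 CPM with vehicle and 417 to 785 CPM with LPC. CSF1R, AIF1, TYROBP, and ITGAM stayed at or under 0.382 CPM. Of the 13 fibroblast markers, 3 rose, LUM, DDR2, and FAP, 0 without vehicle replicate 2 or LPC replicate 2, and 1 without vehicle replicate 3, LPC replicate 1, or LPC replicate 3. The other 10 fibroblast markers had negative log2 fold changes and were not called. The median of the 13 was −0.25, against −0.18 over all genes tested. Of the 12 endothelial and 3 leukocyte markers tested, 0 were called by edgeR or DESeq2, and 1 endothelial marker was lower at an unadjusted p under 0.05. The part of these markers in the results below was not tested. In bulk libraries, fewer cells of a type and less RNA per cell cannot be told apart.

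LPC raised many genes and lowered few. An adjusted p under 0.05 was reached by 1129 upregulated genes (8.54% of the 13216 tested) and by 19 downregulated genes (0.144%). At an unadjusted p under 0.05 the counts were 1726 (13.1%) and 373 (2.82%). Of the upregulated genes, 1121 were higher with LPC in all 3 same-isolation pairs, an outcome that their selection on the same libraries largely fixed. Among the upregulated genes, 1124 rose more than 2-fold, 314 more than 4-fold, and 18 more than 8-fold. Their median expression was 8.70 CPM with vehicle and 28.2 CPM with LPC, and their median log2 fold change was 1.63 (interquartile range 1.32 to 2.05). Over all genes tested the median log2 fold change was −0.18, and it was 0 when counts were scaled by library totals alone, so every change below stands on a scale whose centre lies slightly under 0. Upregulated genes numbered 712 without vehicle replicate 2 and 668 without LPC replicate 2. Downregulated genes numbered 8 with the isolation as a block, 10 without vehicle replicate 2, 12 without LPC replicate 1, and 69 without replicate 2 of LPC + dantrolene, a library that enters only through the shared spread.

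**Figure D1:**
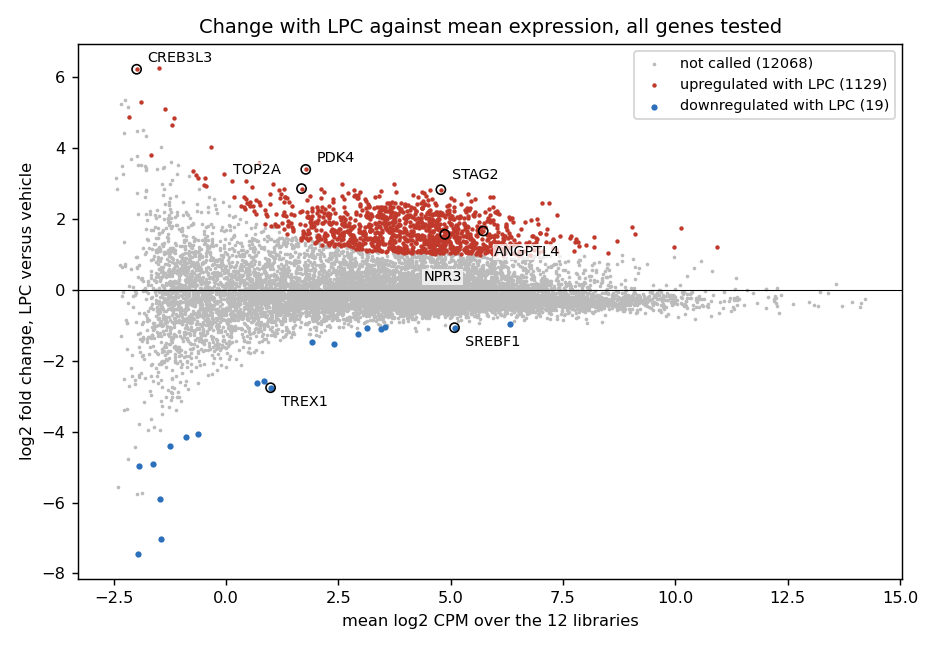
Log2 fold change with LPC compared to vehicle (y axis) against mean log2 CPM over the 12 libraries (x axis), 1 point per gene tested. The 1129 upregulated genes (red) form a band across middle expression levels, and most of the 19 downregulated genes (blue) lie at low expression. Circled genes are named in the text.

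The 15 named upregulated genes with the smallest adjusted p encoded proteins of varied function. CCDC186, a coiled-coil protein of the trans-Golgi, was at 4.39, 2.63 and 3.60 CPM in the vehicle libraries and at 24.3, 32.9 and 27.6 CPM with LPC, an increase of 2.99 on the log2 scale (standard error 0.40, adjusted p = 7.32e-07). STAG2, a subunit of the cohesin ring, was at 7.54, 7.07 and 7.50 CPM with vehicle and 51.8, 63.7 and 41.1 CPM with LPC (log2 fold change 2.82, adjusted p = 7.32e-07). All LPC libraries lay far above all vehicle libraries for both genes. NIPBL, which loads cohesin onto DNA, rose from 6.50 ± 0.983 to 46.2 ± 9.23 CPM (SD, n = 3). EEA1, a tether of early endosomes, rose from 12.1 ± 2.86 to 79.2 ± 15.4 CPM. PIK3C2A, a lipid kinase of endocytosis, rose from 5.93 ± 1.26 to 40.0 ± 7.75 CPM. USP53, a member of the deubiquitinase family, had closely spaced values, at 23.1, 19.9 and 19.1 CPM against 128, 126 and 126 CPM. ARHGAP5, a GTPase-activating protein, SMC2, a condensin subunit, KTN1, a kinesin anchor of the endoplasmic reticulum, ESF1, a nucleolar protein, JMJD1C, a histone demethylase family member, VPS13C, a lipid transfer protein, TRIP11, a golgin, and SAMD9, an interferon-inducible gene, had log2 fold changes between 2.53 and 2.78 (adjusted p from 9.35e-07 to 1.38e-06). Among these 15 genes, PDK4 alone was not also upregulated with dantrolene compared to vehicle, a comparison that shares the vehicle libraries and in which 7.54% of genes rose. The 15 genes stayed past the threshold in every alternative that tested them.

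**Figure D2:**
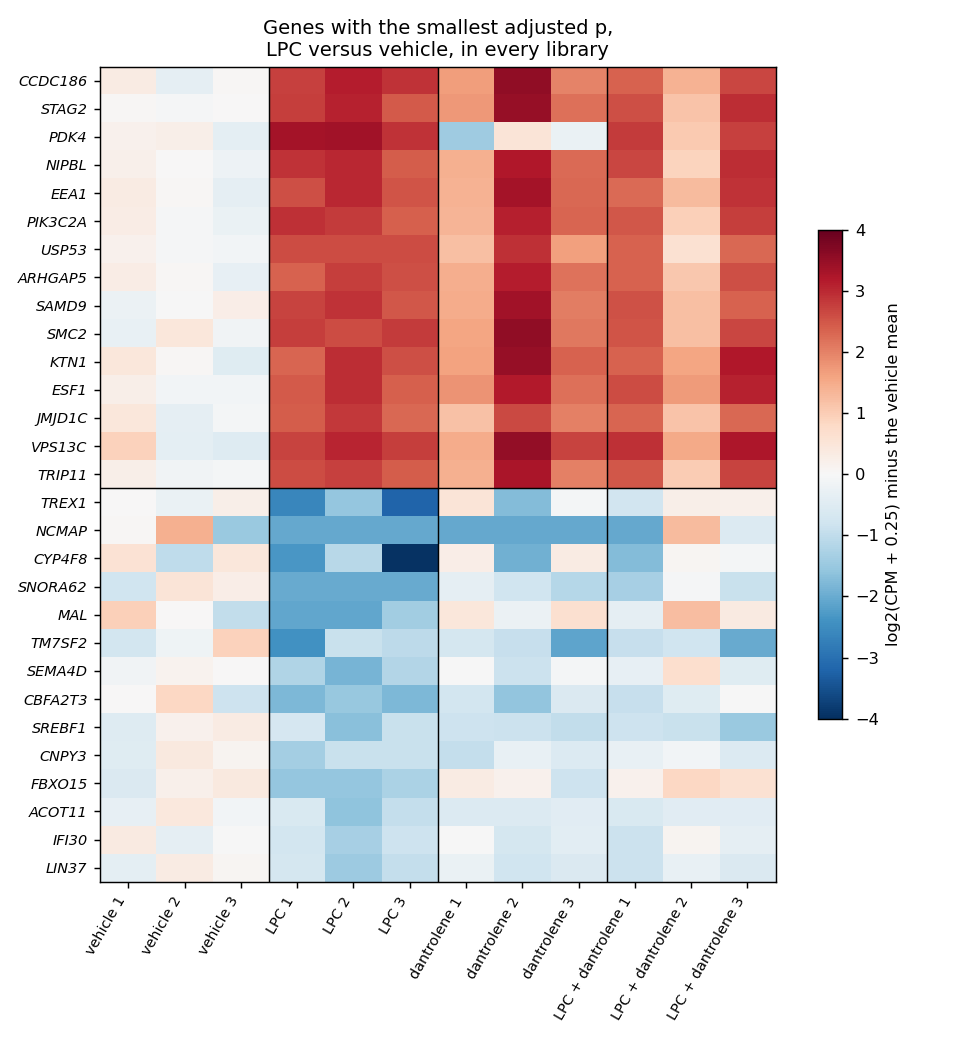
Log2(CPM + 0.25) minus the mean of the vehicle libraries (colour) for the named genes with the smallest adjusted p (rows, upregulated above the line and downregulated below it) in all 12 libraries (columns). The LPC libraries are red for all 15 upregulated genes, and in the dantrolene libraries PDK4 is the exception. Replicate 2 of LPC + dantrolene is paler than the other 2 of its group for the upregulated genes.

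Gene lists were counted against the 8.54% of all genes upregulated. They were chosen with earlier results of these data known, which can favour a high share. The lists that held the largest shares described chromosome, centrosome, and membrane traffic proteins. These shares were not particular to LPC. Dantrolene compared to vehicle, which shares the vehicle libraries, raised 10 cohesin, 13 centrosome, and 12 golgin genes, where 7.54% of all genes rose. In these 3 lists, 0 genes were called higher with LPC than with dantrolene, where 0.212% of all genes were. Of 17 cohesin subunits and regulators tested, 9 rose and none fell (median log2 fold change 1.44). Besides STAG2 and NIPBL, the ring subunit SMC3 rose from 9.50 ± 1.65 to 57.7 ± 12.1 CPM, STAG1, the paralog of STAG2, from 6.74 ± 1.23 to 36.4 ± 1.98 CPM, and PDS5B and PDS5A, which bind the ring, by log2 fold changes of 2.10 and 1.81. Of 36 centrosome and centriolar satellite genes, 18 rose (median 1.22). PCM1, the scaffold of centriolar satellites, was at 18.0, 8.53 and 8.31 CPM with vehicle and 53.8, 72.2 and 59.5 CPM with LPC. AKAP9, a kinase anchor of the centrosome and Golgi, had a log2 fold change of 2.51, NIN (ninein, which anchors microtubules) 2.24, and PLK4, the kinase that starts centriole duplication, 2.31. The centrosome count was 10 without LPC replicate 2. It was 12 with the isolation as a block, a fit in which 872 genes rose in all. Of 25 golgins and coiled-coil membrane tethers, 12 rose (median 1.02), among them GOLGB1, the largest golgin, from 14.1 ± 5.47 to 80.5 ± 8.41 CPM, and CCDC88A and GCC2 with log2 fold changes of 2.64 and 2.39.

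**Figure D3:**
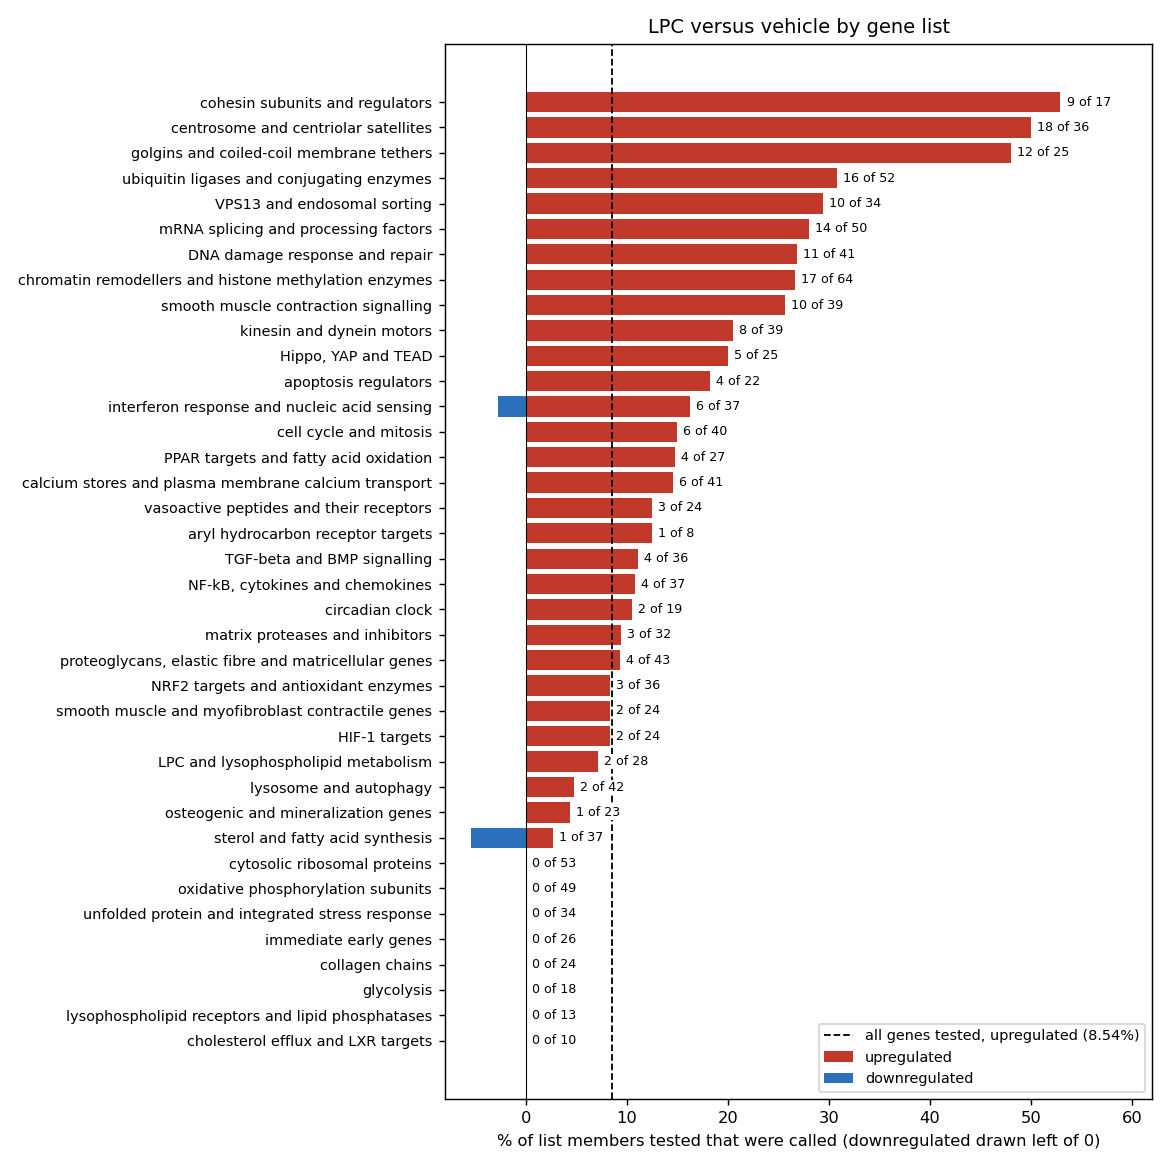
Share of the tested members of each gene list that were upregulated (red, right of 0) or downregulated (blue, drawn left of 0) with LPC, in percent. The dashed line marks the 8.54% of all genes tested that were upregulated, and the numbers give upregulated members of those tested. Cohesin, centrosome, and golgin lists reach furthest to the right, and 8 lists have no member called.

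Nuclear lists lay in between. Of 64 chromatin remodellers and histone methylation enzymes, 17 rose (median 0.06), led by ATRX, a remodeller that deposits histone H3.3, from 5.71 ± 2.12 to 36.3 ± 6.23 CPM, and by the remodellers SMARCAD1 and CHD9 (log2 fold changes 2.46 and 2.38). Of 50 splicing and mRNA processing factors, 14 rose (median 0.20), with THOC2, an export factor, at 2.21, U2SURP at 2.15, and the splicing kinases CLK1 and CLK4 at 1.83 and 1.79 on the log2 scale. Of 41 genes of DNA damage response and repair, 11 rose (median 0.23). REV3L, the catalytic subunit of a translesion polymerase, had a log2 fold change of 2.66, and ATM, the kinase that senses double-strand breaks, rose from 5.19 ± 1.53 to 20.0 ± 1.51 CPM. USP1, SMC6, NBN, and MDM4 changed by 2.13, 2.10, 2.11 and 1.90 on the log2 scale. With dantrolene compared to vehicle, 17 chromatin, 11 splicing, and 14 repair genes of these lists rose.

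A few cell cycle genes rose. Of 40 tested, 6 passed the test (15%, against 8.54% of all genes), all upward (median 0.03). Dantrolene compared to vehicle raised 3 of these 40 genes. TOP2A, the topoisomerase of dividing cells, was at 3.77, 2.22 and 1.45 CPM with vehicle and 24.9, 17.4 and 11.9 CPM with LPC, a log2 fold change of 2.85 (adjusted p = 0.000293). CENPF and CENPE, proteins of the mitotic kinetochore, had log2 fold changes of 2.63 and 2.30, and RBL1, CDK6, and MAD2L1 1.32, 1.28 and 1.30. The groups did not overlap for TOP2A, yet the call was lost without LPC replicate 2 (adjusted p = 0.0738, edgeR) and with DESeq2's Wald test (adjusted p = 0.377). The list's count was 2 without LPC replicate 2, 3 without LPC replicate 1, and 3 without vehicle replicate 3.

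Genes for protein turnover and transport rose in part. Of 52 ubiquitin ligases and conjugating enzymes, 16 rose (median 0.53), with the scaffold CUL5 at a log2 fold change of 2.29, UBA6, which activates ubiquitin, at 2.22, and UBR3 at 2.06. This count was 10 without vehicle replicate 2, 10 without vehicle replicate 3, and 9 without LPC replicate 2. Of 34 genes of the VPS13 family and endosomal sorting, 10 rose (median 0.14), among them VPS13A and VPS13B beside VPS13C, with log2 fold changes of 2.33, 1.71 and 2.73. Of 39 kinesin and dynein motors, 8 rose (median −0.08), and 5 without LPC replicate 2. KIF5B, the main kinesin heavy chain of non-neuronal cells, rose from 69.3 ± 17.6 to 301 ± 20.7 CPM, and DYNC2H1, the dynein of cilia, changed by 2.55 on the log2 scale. Of 42 lysosome and autophagy genes, 2 rose (median −0.36), a share of 4.76% that lay under the 8.54% of all genes. They were PIK3C3 (log2 fold change 2.00), the lipid kinase that starts autophagy, and LYST (1.71), which was lost without vehicle replicate 2 (adjusted p = 0.0553, edgeR). Compared to vehicle, dantrolene raised 14 ubiquitin, 10 endosomal sorting, 7 motor, and 2 lysosome and autophagy genes of these lists.

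Contractile genes were counted as signalling enzymes and as structural proteins. Of 39 genes of smooth muscle contraction signalling, 10 rose (median 0.04), and 6 without vehicle replicate 3. ROCK2, a kinase that keeps myosin phosphorylated, was at 17.0, 9.75 and 9.06 CPM with vehicle and at 67.3, 72.1 and 68.6 CPM with LPC (log2 fold change 2.53, adjusted p = 2.37e-06). ROCK1 was at 22.7, 16.2 and 15.1 CPM against 85.3, 90.3 and 71.3 CPM (2.19, adjusted p = 9.36e-06). The LPC libraries lay above all vehicle libraries for both kinases. PRKG1, a cGMP-dependent kinase that relaxes smooth muscle, rose from 6.41 ± 3.05 to 23.3 ± 7.54 CPM, and PPP1CB, the catalytic subunit of myosin phosphatase, and PLCB1, a phospholipase C, changed by 1.58 and 1.42 on the log2 scale. Members with opposite effects on contraction were among those that rose. With dantrolene compared to vehicle, 10 of the 39 signalling genes also rose. Of 24 contractile genes, 2 rose (8.33%, close to the share of all genes), the actin binding proteins CALD1, from 1489 ± 108 to 3433 ± 145 CPM, and SYNPO2, from 172 ± 23.3 to 400 ± 119 CPM. Both calls were lost without vehicle replicate 2 (adjusted p = 0.0963 and 0.107, edgeR), that of CALD1 also without LPC replicate 2 (adjusted p = 0.0653, edgeR) and that of SYNPO2 without LPC replicate 3 (adjusted p = 0.13, edgeR). ACTA2, smooth muscle actin, was at 15910, 17220 and 23130 CPM with vehicle and 10240, 13400 and 17410 CPM with LPC, lower in all 3 same-isolation pairs although the groups overlap, and its log2 fold change of −0.45 did not pass the test (adjusted p = 0.584).

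Of 41 genes of calcium stores and calcium transport, 6 rose (median −0.09). TRPM7, a channel kinase that conducts magnesium and calcium, rose from 6.59 ± 1.83 to 32.9 ± 1.16 CPM, and CACNA2D1, an auxiliary subunit of voltage-gated calcium channels, from 18.8 ± 6.77 to 65.2 ± 0.381 CPM. The other 4 were PPP3CA, the catalytic subunit of calcineurin (log2 fold change 1.29), ATP2B1, a plasma membrane calcium pump (1.29), ITPR2, an inositol trisphosphate receptor (1.39), and TRPC1, a cation channel (1.43). These 4 calls were each lost without 1 or more single libraries, and the count was 2 without vehicle replicate 2, vehicle replicate 3, or LPC replicate 2, and 3 without LPC replicate 1. Dantrolene compared to vehicle also raised 6 of the 41. RYR3, a ryanodine receptor gene, was at 32.2, 26.9 and 21.1 CPM with vehicle and 28.8, 23.9 and 30.1 CPM with LPC, which overlap (log2 fold change 0.05, adjusted p = 0.955).

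A few receptors and signal transducers rose. Of 36 genes of TGF-β and BMP signalling, 4 rose (median −0.24). These were TGFBR1, the type I TGF-β receptor, from 25.7 ± 7.62 to 97.1 ± 8.99 CPM, BMPR1A, a BMP receptor (log2 fold change 1.85), SMAD5, a BMP effector (1.79), and SKIL, a repressor of SMAD signalling (1.95). Of 37 NF-κB, cytokine, and chemokine genes, 4 rose (median −0.25), and IL6ST, the shared receptor chain of the interleukin-6 family, was the most expressed of them, at 74.0, 38.9 and 34.8 CPM with vehicle and 245, 358 and 205 CPM with LPC. TLR3, IL33, and REL had log2 fold changes of 1.74, 1.37 and 1.28, and the count was 2 without vehicle replicate 1, vehicle replicate 3, LPC replicate 1, or LPC replicate 2. CXCL8, a chemokine, was at 1.05, 0.584 and 0.116 CPM against 2.56, 1.47 and 0.463 CPM, higher in all 3 same-isolation pairs although the groups overlap, and did not pass the test (log2 fold change 1.32, adjusted p = 0.243). Of 37 genes of interferon response and nucleic acid sensing, 6 rose and 1 fell (median −0.18). JAK2, a cytokine receptor kinase, and EIF2AK2, the kinase that senses double-stranded RNA, had log2 fold changes of 2.30 and 2.11, and IFIT5 and IFI44L 1.81 and 1.31. The count was 3 without vehicle replicate 1 or LPC replicate 1, and the gene that fell was TREX1. Of 25 Hippo pathway genes, 5 rose (median −0.21), with the kinase adaptors MOB1A and MOB1B at 2.03 and 1.76, and 3 without vehicle replicate 2, vehicle replicate 3, or LPC replicate 2.

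Lipid genes gave a small set of changes. Of 27 PPAR targets and fatty acid oxidation genes, 4 rose (median −0.16), and the same count was found with each vehicle or LPC library left out. PDK4, a kinase that shuts off pyruvate dehydrogenase, was at 1.48, 1.58 and 0.930 CPM with vehicle and 15.3, 15.6 and 11.3 CPM with LPC (log2 fold change 3.40, standard error 0.47, adjusted p = 7.32e-07). ANGPTL4, a secreted inhibitor of lipoprotein lipase, was at 20.8, 51.2 and 33.6 CPM against 123, 124 and 85.7 CPM (1.66, standard error 0.34, adjusted p = 0.000197). ACADM, the dehydrogenase for medium-chain fatty acids, was at 11.8, 9.99 and 9.71 CPM against 39.1, 44.2 and 33.6 CPM (1.89, adjusted p = 4.36e-05). For all 3 genes the LPC libraries stood clear of the vehicle libraries. CREB3L3, a membrane-bound transcription factor of lipid metabolism, had 1, 0 and 0 counts with vehicle and 39, 21 and 44 counts with LPC, a ratio of 100.2 after scaling for depth (95% counting interval 17.6 to 3996).

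Sterol and fatty acid synthesis leaned the other way, though few genes passed the test. Of 37 genes tested, 32 had a negative log2 fold change and 5 a positive one, where 36.7% of all genes had a positive one. In 16 of the 37, all LPC values lay under all vehicle values, as in 10.6% of all genes. The median was −0.56, or −0.39 on total counts alone. Dantrolene compared to vehicle, which shares the vehicle libraries, gave a median of −0.4 for the same list. TM7SF2, a sterol reductase, was at 6.20, 9.29 and 20.1 CPM with vehicle and 1.74, 5.54 and 4.99 CPM with LPC (log2 fold change −1.53, adjusted p = 0.00994). SREBF1, the transcription factor that drives fatty acid synthesis, was at 40.2, 65.2 and 72.4 CPM against 36.1, 17.7 and 30.9 CPM (−1.07, adjusted p = 0.0266). The groups did not overlap for either gene, but vehicle replicate 1 lay close to LPC replicate 1 for SREBF1 and to LPC replicate 2 for TM7SF2. The call of TM7SF2 was lost without vehicle replicate 3, where its log2 fold change was −0.86 (adjusted p = 0.526, edgeR), without LPC replicate 1 (adjusted p = 0.212, edgeR), and without LPC replicate 2 (adjusted p = 0.0575, edgeR). With counts scaled by library totals alone, neither gene passed (adjusted p = 0.0832 and 0.12, edgeR), and the list had 0 downregulated genes. TM7SF2 did not pass with DESeq2's Wald test either (adjusted p = 0.0626). The call of SREBF1 was also lost with the isolation as a block (adjusted p = 0.062, edgeR) and without vehicle replicates 2 or 3, LPC replicates 2 or 3, or dantrolene replicate 1 (adjusted p from 0.0529 to 0.294, edgeR). Both genes were lower with dantrolene than with vehicle too, TM7SF2 by −1.34 (adjusted p = 0.0313, edgeR) and SREBF1 by −0.94 (adjusted p = 0.0653, edgeR). LPC differed from dantrolene by −0.20 for TM7SF2 and −0.13 for SREBF1 on the log2 scale. STARD4, a cholesterol carrier, rose from 15.2 ± 4.44 to 42.7 ± 7.30 CPM. Of 28 genes of LPC metabolism, 2 rose, the phospholipase PLA2G4A, which makes LPC and arachidonic acid, from 18.4 ± 4.61 to 63.1 ± 14.3 CPM, and the phosphodiesterase GPCPD1 (log2 fold change 1.20, adjusted p = 0.0444), whose call was lost in 11 of 21 alternatives. None of the 13 lysophospholipid receptor and lipid phosphatase genes and none of the 10 cholesterol efflux genes were called by edgeR or DESeq2, and at an unadjusted p under 0.05 the counts were 0 and 4, the 4 being lower with LPC.

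The lists of NRF2 and HIF-1 targets each held 8.33% upregulated genes, close to the 8.54% of all genes. Of 36 NRF2 targets and antioxidant genes, 3 rose (median −0.16). SLC7A11, the cystine importer for glutathione, was at 13.5, 11.7 and 7.21 CPM with vehicle and 59.9, 52.2 and 40.2 CPM with LPC, and NFE2L2, which encodes NRF2 itself, at 64.0, 49.7 and 43.8 CPM against 153, 172 and 125 CPM. GCLM, a subunit of the enzyme that starts glutathione synthesis, had a log2 fold change of 1.07 (adjusted p = 0.0318), lost in the blocked fit and without any 1 of vehicle replicates 1 to 3 or LPC replicates 1 or 2. Of 24 HIF-1 targets, 2 rose, HIF1A, the hypoxia factor, from 142 ± 48.9 to 403 ± 47.7 CPM, and PLOD2, a collagen lysyl hydroxylase, from 154 ± 31.8 to 421 ± 56.3 CPM. Of 22 apoptosis regulators, 4 rose (18.2%), among them the inhibitors of apoptosis BIRC6, XIAP, and BIRC2 (log2 fold changes 2.24, 2.01 and 1.91). Dantrolene compared to vehicle raised 5 of these 22 genes. AHR, the aryl hydrocarbon receptor, rose by a log2 fold change of 1.46 as 1 of 8 genes of its list, and NR1D2 and CLOCK as 2 of 19 clock genes (1.41 and 1.39). The call of CLOCK was lost without vehicle replicates 2 or 3 and without LPC replicates 1 or 2.

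The lists of glycolysis, nuclear-encoded oxidative phosphorylation subunits, and cytosolic ribosomal proteins held no called gene with edgeR or DESeq2. The 18 glycolysis genes all had negative log2 fold changes, from −0.57 to −0.17 (median −0.33), and 17 of them lay below the −0.18 of all genes. The median of 49 oxidative phosphorylation subunits was −0.21 and that of 53 cytosolic ribosomal proteins −0.21, both close to the −0.18 of all genes. The 34 genes of the unfolded protein and integrated stress response (median −0.22) and the 26 immediate early genes (median −0.21) also had 0 calls with both tools. At an unadjusted p under 0.05, 0 glycolysis genes, 2 oxidative phosphorylation subunits, 1 ribosomal protein gene, and 1 immediate early gene were lower, and 2 genes of the unfolded protein list were higher. Outside these lists, and examined after their values were seen, 5 of the 13 protein genes of the mitochondrial genome rose, ND5, ND2, ATP8, ND6, and ATP6. ND5, a subunit of complex I, was at 665, 471 and 345 CPM with vehicle and 909, 2231 and 1798 CPM with LPC (log2 fold change 1.74, adjusted p = 0.000411). The count was 0 without LPC replicate 2, and 3 without vehicle replicate 2, without vehicle replicate 3, and with the isolation as a block. EIF5B, a translation factor outside the lists, had a log2 fold change of 2.19, and translation factors were not counted as a list.

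Matrix lists held shares of upregulated genes close to the 8.54% of all genes, 9.30% for proteoglycans and related genes and 9.38% for proteases. Of 43 proteoglycan, elastic fibre, and matricellular genes, 4 rose (median −0.37), and 1 without vehicle replicate 2 or without LPC replicate 2. OGN, osteoglycin, was at 3.19, 0.876 and 1.10 CPM with vehicle and 4.0, 13.9 and 7.56 CPM with LPC (log2 fold change 2.28, adjusted p = 0.000144). LUM, lumican, was at 140, 70.9 and 115 CPM against 180, 413 and 235 CPM (1.35, adjusted p = 0.00351). ASPN, asporin, was at 133, 41.2 and 83.2 CPM against 130, 335 and 278 CPM (1.53, adjusted p = 0.000857), so vehicle replicate 1 and LPC replicate 1 overlap. POSTN, periostin, overlapped in the same pair, at 35.0, 8.88 and 13.7 CPM against 31.4, 98.9 and 44.9 CPM. Vehicle replicate 2 was the lowest vehicle library and LPC replicate 2 the highest LPC library for all 4 genes. None of the 24 collagen chain genes were called by edgeR or DESeq2 (median −0.25), and 1 was higher and 1 lower at an unadjusted p under 0.05. Of 32 matrix proteases and inhibitors, 3 rose, ADAM10, a membrane sheddase (log2 fold change 1.51), MMP16 (1.61), and ADAMTS6 (1.20), and 1 without vehicle replicate 2, vehicle replicate 3, or LPC replicate 2. Of 23 osteogenic and mineralization genes, 1 rose, OMD, osteomodulin (1.72), and its call was lost without vehicle replicate 2 or LPC replicate 2 (adjusted p = 0.136 and 0.135, edgeR). RUNX2, the master factor of osteoblasts, was at 33.3, 47.2 and 23.5 CPM with vehicle and 34.5, 18.2 and 28.8 CPM with LPC (log2 fold change −0.35, adjusted p = 0.654). SOX9, the factor of cartilage, had a log2 fold change of −0.41 (adjusted p = 0.621), and the groups overlapped for both.

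Of the 19 downregulated genes, 3 were members of the lists, TREX1, TM7SF2, and SREBF1. In all, 17 were lower with LPC in all 3 same-isolation pairs, a count that their selection on these libraries favours. Of these 17, 14 had a symbol. TREX1, an exonuclease that clears DNA from the cytosol, was at 3.53, 2.86 and 4.13 CPM with vehicle and 0.359, 1.03 and 0.154 CPM with LPC (log2 fold change −2.76, standard error 0.61, adjusted p = 0.000556), and no alternative removed this call. NCMAP, a myelin protein gene, had 17, 43 and 2 counts with vehicle and 0 in all LPC libraries, which is at least 21.4-fold lower against a floor of 3 counts over the group. SNORA62, a small nucleolar RNA that poly(A) selection captures poorly, had 7, 21 and 17 counts against 0, at least 15.6-fold lower. Both were at 0 in every LPC library, and NCMAP was at 0 in every dantrolene library as well. MAL, a protein of lipid rafts, had 38, 14 and 5 counts with vehicle and 0, 0 and 3 with LPC, a ratio of 19.7 (95% counting interval 6.41 to 98.4). The calls of NCMAP and MAL were lost without LPC replicate 1 (adjusted p = 0.0507 and 0.0941, edgeR) or LPC replicate 2 (0.0843 and 0.112), that of NCMAP also without vehicle replicate 2 (0.11) and with DESeq2 (0.151), and that of MAL without vehicle replicate 1 (0.149). CYP4F8, a fatty acid hydroxylase, was at 5.44, 1.64 and 5.00 CPM against 0.512, 1.52 and 0 CPM, and SEMA4D, a semaphorin, at 4.63, 5.67 and 5.17 CPM against 2.10, 1.25 and 2.16 CPM (log2 fold change −1.48, adjusted p = 0.021). CNPY3, a chaperone of Toll-like receptors, ACOT11, an acyl-CoA thioesterase, IFI30, a lysosomal thiol reductase, and LIN37, a subunit of the complex that represses cell cycle genes, had log2 fold changes between −1.10 and −0.97 (adjusted p from 0.0308 to 0.048). CYP4F8 was lost without vehicle replicate 1 or LPC replicate 1, on total counts alone, and with DESeq2 (adjusted p from 0.0632 to 0.206). With the isolation as a block, SEMA4D, CNPY3, ACOT11, IFI30, and LIN37 were not called, nor were CBFA2T3 and FBXO15, which had 39 and 27 counts over the vehicle group and 1 count each over the LPC group. LURAP1L and TMEM61, named after their values were seen, moved in both directions across the pairs, and 3 of the 19 had no symbol.

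To set LPC apart from dantrolene, genes were taken that passed LPC compared to vehicle and LPC compared to dantrolene in the same direction, which share the LPC libraries. LPC and dantrolene libraries differed little by this test, with 28 genes higher (0.212%) and 15 lower (0.113%) with LPC, and 328 (2.48%) and 254 (1.92%) at an unadjusted p under 0.05. The genes past both numbered 6 upregulated (0.0454%) and 1 downregulated (0.00757%), which were PDK4, ANGPTL4, NPR3, CREB3L3, SHCBP1, ESM1, and TREX1. Of the 1129 genes upregulated compared to vehicle, 54 had an unadjusted p of at least 0.05 for dantrolene compared to vehicle, and 1093 had one of at least 0.05 for LPC compared to dantrolene. A p above the threshold does not show that a gene was the same in both groups.

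PDK4 (chromosome 9, 75246956 to 75260134, Sscrofa11.1) was at 0.329, 1.98 and 1.04 CPM with dantrolene, which overlaps the vehicle libraries, and LPC exceeded dantrolene by 3.61 on the log2 scale (adjusted p = 1.09e-07). ANGPTL4 (chromosome 2, 70905767 to 70912892) was at 11.0, 18.7 and 23.6 CPM with dantrolene, and LPC exceeded it by 2.64 (adjusted p = 1.88e-07). Dantrolene itself lay below vehicle for ANGPTL4 (log2 fold change −0.98, unadjusted p = 0.00441, adjusted p = 0.0501, edgeR), and that difference is part of the 2.64. NPR3 (chromosome 16, 18841540 to 18929813), the receptor that clears natriuretic peptides, was at 31.1, 22.7 and 29.7 CPM with vehicle, 67.7, 68.4 and 111 CPM with LPC (log2 fold change 1.56, adjusted p = 0.000688), and 17.0, 29.5 and 13.3 CPM with dantrolene (LPC higher by 2.04, adjusted p = 0.000343). These 3 genes kept both calls in every alternative that tested them, and LPC libraries lay above all vehicle and dantrolene libraries in each.

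The other 4 were less firm. CREB3L3 (chromosome 2, 74578471 to 74588269) had 0 counts in all dantrolene libraries, so that LPC was at least 38.0-fold higher against a floor of 3 counts over the group (adjusted p = 0.00597). SHCBP1 (chromosome 6, 38029869 to 38063773), a protein of the dividing cell's midbody, was at 1.38, 1.05 and 0.930 CPM with vehicle, 9.07, 4.18 and 5.61 CPM with LPC, and 0.274, 1.52 and 0.382 CPM with dantrolene. ESM1 (chromosome 16, 34184255 to 34193877), a secreted proteoglycan of vessels, was at 11.7, 14.3 and 13.8 CPM, 24.2, 22.3 and 43.6 CPM, and 6.95, 17.3 and 7.86 CPM in the same order. In both genes all LPC values lay above those of the other 2 groups. TREX1 (chromosome 13, 31177604 to 31180764) was at 5.04, 0.876 and 3.27 CPM with dantrolene, where replicate 2 overlaps the LPC libraries. With the isolation as a block, the difference from dantrolene was lost for CREB3L3 (adjusted p = 0.0523, edgeR), SHCBP1 (0.264), ESM1 (0.385), and TREX1 (0.282), and it was also lost for all 4 without LPC replicate 1 (adjusted p from 0.1 to 0.34, edgeR), LPC replicate 2 (0.0826 to 0.216), and dantrolene replicate 1 (0.122 to 0.498). Without vehicle replicate 1, which enters that difference only through the shared spread, it was lost for the same genes (0.0561 to 0.186). It was lost for CREB3L3, ESM1, and TREX1 without LPC replicate 3 or dantrolene replicate 3, for ESM1 and TREX1 without vehicle replicate 2, and for CREB3L3 without dantrolene replicate 2 (adjusted p from 0.0541 to 0.56, edgeR). Against vehicle, ESM1 was lost without LPC replicate 3 (log2 fold change 0.81, adjusted p = 0.325, edgeR), without each other vehicle or LPC replicate except vehicle replicate 3, and with the block (adjusted p = 0.0905, edgeR). SHCBP1 was lost against vehicle without vehicle replicate 2 (adjusted p = 0.0605, edgeR) and LPC replicate 1 (0.125). With DESeq2's Wald test, CREB3L3 (adjusted p = 0.0694), SHCBP1 (0.197), and ESM1 (0.0581) did not pass against vehicle.

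**Figure D4:**
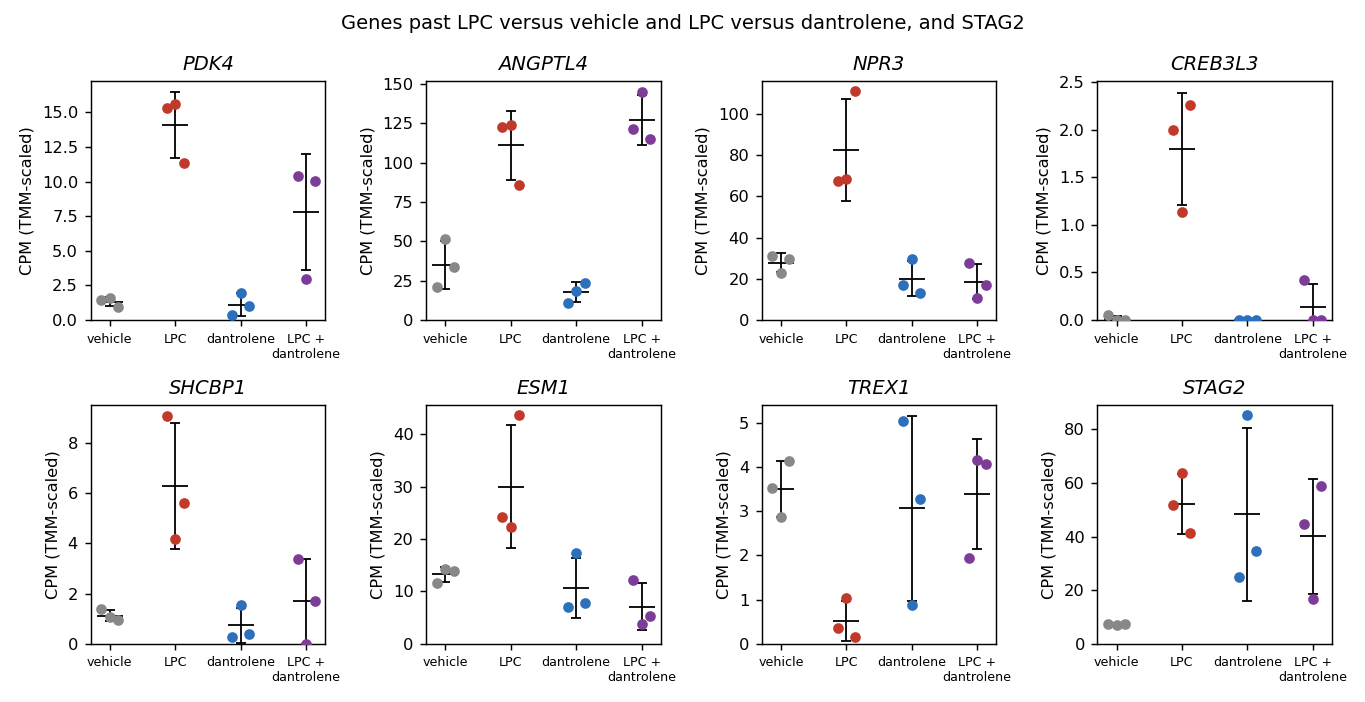
CPM (TMM-scaled, linear axes from 0) of the 7 genes past both comparisons, and of STAG2 for contrast, in the 4 groups. Points are libraries in the order of replicates 1, 2 and 3, and bars are the mean and SD (n = 3). PDK4 and ANGPTL4 are high with LPC alone and with LPC + dantrolene, NPR3 and ESM1 with LPC alone, and STAG2 is above vehicle in all treated groups.

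Vasoactive genes were where NPR3 and ESM1 fell among the lists. Of 24 tested, 3 rose, and the other was CALCRL, the receptor of calcitonin gene-related peptide, at 0, 0 and 0.291 CPM with vehicle and 0.871, 3.10 and 0.874 CPM with LPC (adjusted p = 0.00312). Without LPC replicate 2 its adjusted p was 0.129 (edgeR) and the list's count was 1. AGTR1, the angiotensin receptor, was at 13.6, 14.1 and 12.2 CPM with vehicle and 13.1, 16.9 and 20.9 CPM with LPC, which overlap (log2 fold change 0.35, adjusted p = 0.663).

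The effect of LPC was also read in libraries that the comparison with vehicle did not use, as LPC + dantrolene compared to dantrolene. By an adjusted p under 0.05, 2 genes rose there (0.0151%) and 1 fell (0.00757%), and 102 (0.772%) and 67 (0.507%) had an unadjusted p under 0.05. The gene that fell had no symbol, and the other 2 were PDK4 and ANGPTL4. PDK4 was at 10.4, 2.98 and 10.1 CPM with LPC + dantrolene (log2 fold change 2.77, adjusted p = 0.000272), and ANGPTL4 at 121, 145 and 115 CPM (2.84, adjusted p = 7.59e-08). Both calls held without any 1 replicate of LPC + dantrolene. NPR3 was at 27.9, 10.9 and 17.1 CPM (log2 fold change −0.10) and ESM1 at 12.2, 3.73 and 5.32 CPM (−0.60), within or under the range with dantrolene alone. TREX1 was at 1.95, 4.16 and 4.06 CPM (0.16). Of the 1129 genes upregulated with LPC alone, 339 had a positive log2 fold change here, where 6663 of all 13216 genes did, and their median was −0.09. Leaving out LPC + dantrolene replicate 1, 2 or 3 in turn gave medians of −0.31, 0.27 and −0.34, so its sign rested on replicate 2, which had the fewest genes detected (13371) of the 12 libraries. The interaction, which tests the response to LPC with dantrolene against that without it, called 593 genes with a negative value (4.49%) and 21 with a positive one (0.159%). The sign does not give the size of a response, since a fall with LPC that is smaller with dantrolene gives a positive value.

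Upregulated genes were long. The start and end of 10811 of the tested genes were taken from RefSeq (Sscrofa11.1). Upregulated genes had a median span of 65.6 kb, against 30.5 kb for all genes, and downregulated genes 17.8 kb (14 with a span). Among protein-coding genes cut into quintiles of span, 1.67%, 4.04%, 9.15%, 16.3% and 15.9% were upregulated from the shortest to the longest quintile. The median log2 fold change went from −0.29 to 0.03. For LPC compared to dantrolene it went only from −0.04 to 0.03, so these 2 groups differed little along span. The share in the longest quintile exceeded that in the shortest within the low, middle and high tertiles of expression (8.11% against 0.846%, 24.9% against 1.96%, and 13.2% against 1.89%). Single libraries of a group also differed along span. The median deviation of the longest quintile less that of the shortest was 0.06, −0.27 and −0.48 on the log2 scale in vehicle replicates 1, 2 and 3, and 0.37, 0 and 0.33 in LPC replicates 1, 2 and 3. It was 0.05, 0.41 and 0.1 in the dantrolene replicates, and 0.33, −0.51 and 0.34 in those of LPC + dantrolene. When the trend with span was removed from each library, an alternative chosen after the data were seen, 935 genes were upregulated and 17 downregulated of 10811 tested, and the cohesin, centrosome, and golgin lists held 9, 14 and 12 upregulated genes. The part of gene span, RNA quality, or library preparation in these changes was not tested.

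**Figure D5:**
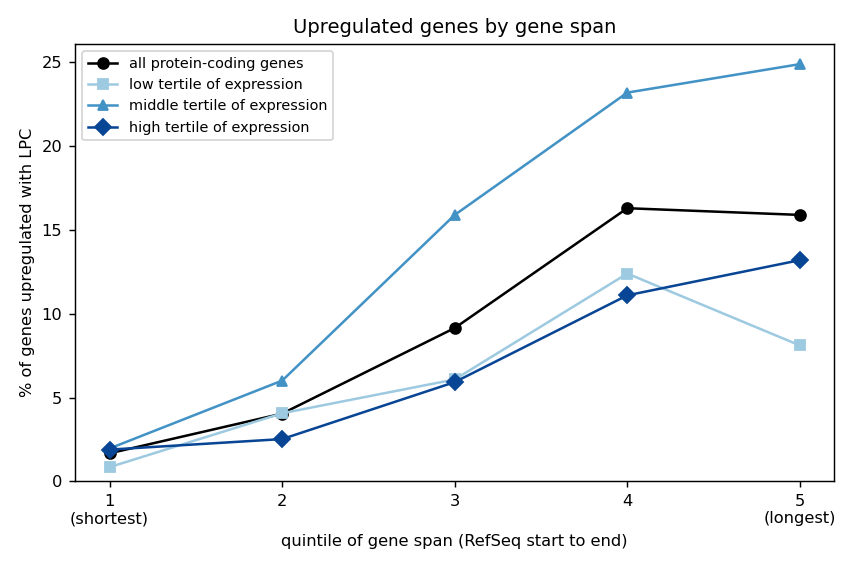
Share of protein-coding genes upregulated with LPC (y axis, percent, from 0) by quintile of gene span from shortest to longest (x axis), over all protein-coding genes and within tertiles of mean expression, each cut into its own quintiles. All 4 lines are higher in the longest than in the shortest quintile, and the middle tertile of expression reaches 24.9% in the longest.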

How the data were processed

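RNA sequencing counts of paVICs were analysed for 12 libraries (4 groups, n = 3). The counts deposited by the authors are whole numbers per gene, made by aligning reads to the pig genome and then adjusting for a batch effect with ComBat. The paper does not name the batch, which was taken to be the isolation. The paper's methods name STAR as the aligner, while the submitters' processing notes list HISAT2 2.0.5 with DESeq2 1.32.0, R 4.1.1 and Sscrofa11.1, and which made the counts could not be settled. The authors also deposited tables of 4 comparisons (mean, log2 fold change, standard error, Wald statistic, and p-values per gene), which were not used. Of 31908 genes listed, 19607 had at least 1 count and 13216 passed edgeR's filterByExpr. The file names 10923 of those by symbol, the reference gene names added 572 more, and 1721 stayed without.

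Counts were fitted in R 4.3.3 with edgeR 4.0.16 (TMM factors, quasi-likelihood test, all 12 libraries in 1 model, group as the only term), with calls made at a p under 0.05 after Benjamini-Hochberg adjustment. The degrees of freedom that ComBat used are not counted by the test, which can make adjusted p-values too small. Adjusted p-values in the text come from this test unless DESeq2 (1.42.0) is named. Intervals and floors cover counting error only, at 95% and 3 counts. The script was tested on simulated data.

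The labels give only a replicate number. By the paper's methods, each experiment used a separate isolation on a different day and held a replicate of every group. Same-numbered libraries were therefore taken as pairs from the same isolation, and isolation and day cannot be told apart. Deviations from the group means correlated at −0.155, −0.254 and −0.15 between same-numbered vehicle and LPC libraries, an outcome that a ComBat adjustment for the isolation fixes.

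The members and gene lists were chosen with earlier results of these data known, so lists were given counts and medians without a test. Named were the up to 15 genes per direction with the smallest adjusted p that have a symbol and moved alike in all 3 pairs (15 and 14), up to 6 called members per list, genes past both LPC comparisons, and genes the study names. Protein length and promoter composition had been planned but were not analysed here, and gene span was used in their place. Alternatives were DESeq2, RLE factors, total counts alone, 2 other filters, a block for isolation, a fit of only the groups compared, a threshold of 0.1, each library left out, and a gene-span offset added after the data were seen.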

Additional observations from a re-analysis of the deposited data

Results flagged for a closer look

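The response to LPC differed with dantrolene present for many genes by the interaction, which is LPC + dantrolene less dantrolene, less LPC less vehicle. At an adjusted p under 0.05 (edgeR), 593 genes (4.49%) had a negative interaction and 21 (0.159%) a positive one. Dantrolene alone raised 7.54% of genes over the same vehicle libraries. A negative value therefore does not show that levels were lower with LPC + dantrolene than with LPC. STAG2, for example, had an interaction of −3.09, with means of 7.37 CPM with vehicle, 52.2 with LPC, 48.3 with dantrolene, and 40.1 with LPC + dantrolene. Without replicates 1, 2 and 3 of LPC + dantrolene the counts were 780, 511 and 889 negative and 35, 25 and 48 positive. The interaction contains the LPC and vehicle libraries themselves, so its overlap with the genes upregulated with LPC is not read here.

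Of the 7 genes past both LPC comparisons, NPR3 had an interaction of −1.66 on the log2 scale (adjusted p = 0.0284, edgeR), ESM1 −1.78 (adjusted p = 0.0294, edgeR), and TREX1 2.92 (adjusted p = 0.0181, edgeR). These genes were chosen on LPC and vehicle libraries that the interaction contains, so the values are given as a description. Without any 1 replicate of LPC + dantrolene the adjusted p of these 3 interactions ran from 0.00388 to 0.0496 (edgeR). For PDK4 (−0.62, adjusted p = 0.682, edgeR) and ANGPTL4 (1.18, adjusted p = 0.16, edgeR) the difference did not pass.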

How the results depend on the processing

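Upregulated genes (1129) ranged from 668 to 1623 with single libraries left out. Downregulated genes (19) ranged from 10 to 69, and were 9 on total counts alone, 29 without a filter, 8 with the isolation as a replicate block, 57 with only the groups compared, and 61 at an adjusted p under 0.1. Genes upregulated against vehicle and against dantrolene (6) ranged from 3 to 12 with single libraries left out, and were 3 on total counts alone, with the replicate block, and with DESeq2, and 11 with only the groups compared. Genes downregulated against both (1) ranged from 0 to 4, and were 0 on total counts alone, with the block, and with the gene-span offset, 5 without a filter and with only the groups compared, and 3 with at least 10 counts in every sample and at an adjusted p under 0.1. The cause of these shifts was not tested. Upregulated genes numbered 872 with the block, 1061 on total counts alone, 1072 with DESeq2, 1181 with RLE factors, and 1558 with only the groups compared. RYR3, not called, had a log2 fold change of 0.05 that ranged from −0.05 (without vehicle replicate 3) to 0.20 (without vehicle replicate 1) with single libraries left out, was −0.02 without LPC replicate 3, and was −0.17 with the gene-span offset. CXCL8 passed without LPC replicate 3. Depth limits statements on genes at or under 3 counts per group.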
